A study of Homo sapiens with 16 samples.

Results

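The probes of 8 genes for enzymes that interconvert alcohols, aldehydes and retinoids were followed over time in SUM225 cells exposed to the HER2 kinase inhibitor CP724,714. The genes were the alcohol dehydrogenases ADH1A, ADH1B, ADH1C and ADH5, the aldehyde dehydrogenases ALDH1A1, ALDH1A3 and ALDH3A1, and the retinaldehyde reductase DHRS3. Members were chosen by gene symbol, with the course of some of them in these arrays already known, so that their courses are described here and not tested. They make up 8 of the 18631 symbols in the table, and each was represented by 1 of its 24526 probes.

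SUM225 is an established human breast cancer line with amplified and over expressed HER2, and CP724,714 is a small molecule that blocks the kinase activity of HER2. By the labels, every culture was grown in Ham's F-12 with 5% fetal bovine serum, 5 µg/ml insulin and 1 µg/ml hydrocortisone, whereas the study's methods name a serum-free medium without insulin for this line, and which of them applied to these cultures is not settled. Every culture other than that at 0 h had received 1 µM CP724,714. RNA of parallel cultures was collected at intervals of 3 h from 0 h to 45 h and hybridised to Illumina bead arrays, with 1 array for each of the 16 time points. Since there was no untreated course to set beside this one, effects of the inhibitor and of time in culture cannot be told apart. For time series of other lines the study's methods describe fresh medium at the start of treatment. If these cultures were handled alike, its effect cannot be separated from that of the inhibitor. In bulk RNA, fewer cells of a type and less RNA per cell cannot be told apart either.

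Alcohol dehydrogenases use NAD to oxidise alcohols, retinol among them, to aldehydes, and aldehyde dehydrogenases oxidise aldehydes to acids. The ALDH1A enzymes make retinoic acid, the ligand of the nuclear retinoic acid receptors, from retinaldehyde, while DHRS3 returns retinaldehyde to retinol. The class I alcohol dehydrogenases are best known from the liver, and aldehyde dehydrogenase activity is widely used to mark stem-like cells in the breast.

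All 7 markers of HER2-amplified luminal breast epithelium (ERBB2, GRB7, KRT8, KRT18, KRT19, EPCAM and CDH1) were detected on all 16 arrays, that is, with a detection p-value under 0.05. Their linear change over 45 h, the first-order part of the fitted course on the log2 scale, was -0.74 ± 0.10 (SE) for KRT18, -0.68 ± 0.10 for KRT8 and -0.37 ± 0.19 for EPCAM, and between -0.10 and 0.13 for the other 4. Of those 4, ERBB2 and KRT19 lay between 16.02 and 16.13 on all arrays and GRB7 reached 16.11, near the brightest signals of the arrays. Linearity at that brightness was not tested, so a small change there does not show a stable level. Markers of other cell types, including those rich in class I alcohol dehydrogenases, were looked for as well. Of 6 hepatocyte markers, SERPINA1 was detected on all 16 arrays, whereas ALB, APOA1, TTR, TF and CYP3A4 were detected on none. SERPINA1 had a linear change of 0.68 ± 0.13 (SE), in the direction of most members, and the part of these marker changes in the members' courses was not tested. The summed linear level of the hepatocyte markers lay between 619 and 995 over the arrays. Of 5 adipocyte markers, ADIPOQ was detected on 1 array, FABP4 and PLIN1 on 2 arrays each, and LEP and CFD on 16, with a summed level of 1144 to 1804. The fibroblast markers COL3A1, DCN and PDGFRB were not detected on any array and COL1A1 and COL1A2 on 5 each, with a summed level of 224 to 303. Of the leukocyte markers, PTPRC was not detected, CD3E was detected on 1 array and CD14 on all 16, with a summed level of 2170 to 4506.

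The 3 class I genes ADH1A, ADH1B and ADH1C lie side by side on chromosome 4 and arose by duplication. Their order there, in the RefSeq gene table, was ADH5, ADH4, ADH6, ADH1A, ADH1B, ADH1C and ADH7. The 250 bases before the transcription start of each class I gene are shown because these neighbours with similar sequence before the start gave different courses. They are taken from RefSeq on GRCh38.p14, minus strand, at chr4:99290986-99291235 for ADH1A, chr4:99321402-99321651 for ADH1B and chr4:99352747-99352996 for ADH1C. Capitals mark the letters TAAATA, an A/T-rich box, and CACGTG, an E-box, on either strand.
ADH1A: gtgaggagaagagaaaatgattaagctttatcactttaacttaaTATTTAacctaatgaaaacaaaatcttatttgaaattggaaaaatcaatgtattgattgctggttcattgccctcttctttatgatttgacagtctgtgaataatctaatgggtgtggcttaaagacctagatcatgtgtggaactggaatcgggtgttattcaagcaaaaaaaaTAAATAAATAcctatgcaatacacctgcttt
ADH1B: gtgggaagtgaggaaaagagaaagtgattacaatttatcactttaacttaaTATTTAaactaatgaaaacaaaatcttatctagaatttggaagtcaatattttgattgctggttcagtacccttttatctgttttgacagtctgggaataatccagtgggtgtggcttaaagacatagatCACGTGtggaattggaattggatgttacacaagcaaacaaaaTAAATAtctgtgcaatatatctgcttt
ADH1C: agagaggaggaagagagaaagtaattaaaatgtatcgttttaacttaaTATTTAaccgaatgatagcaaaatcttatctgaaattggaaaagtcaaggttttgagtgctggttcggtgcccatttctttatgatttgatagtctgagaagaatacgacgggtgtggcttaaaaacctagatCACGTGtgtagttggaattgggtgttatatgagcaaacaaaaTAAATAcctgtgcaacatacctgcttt

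The promoters of the class I genes were alike over most of their length. In global alignments ADH1A and ADH1B were identical in 82.2% of columns, ADH1A and ADH1C in 81.5%, and ADH1B and ADH1C in 81.5%. The promoter of each was identical to those of ADH4, ADH5, ADH6 and ADH7 in 45.5% to 55% of columns. TAAATA was found 3 times in ADH1A, with 2 of its matches overlapping, and 2 times each in ADH1B and ADH1C, the nearest ending 22 bases before the start in all 3. It is held by 11.7% of 35114 RefSeq promoter windows of the same length. CACGTG was present 1 time in both ADH1B and ADH1C, ending 64 bases before the start, and not in ADH1A, and is held by 6.35% of the windows. None of the 3 held TATAAA (10.7% of windows), GTAAACA (2.98%), AGGTCA (12.1%), TGACNNNGC (10.9%) or GCGTG (32.2%) on either strand. Matches are letters only, and no binding was measured.

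Signals were corrected for background, normalized by quantiles and taken to log2. Of the members, 7 passed the filter of detection on at least 3 arrays and were in fact detected on all 16, and ADH1B was detected on none. In total 16110 probes passed. The median deposited signal lay between 242 and 384 over the arrays, and 57.5% to 61.5% of probes were detected on each. A linear change over 45 h is the first-order part of a cubic course fitted to the 16 arrays, with the SE from the scatter around that course, since no time point had a replicate. The courses of all 8 probes are plotted by time point.

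**Figure D1:**
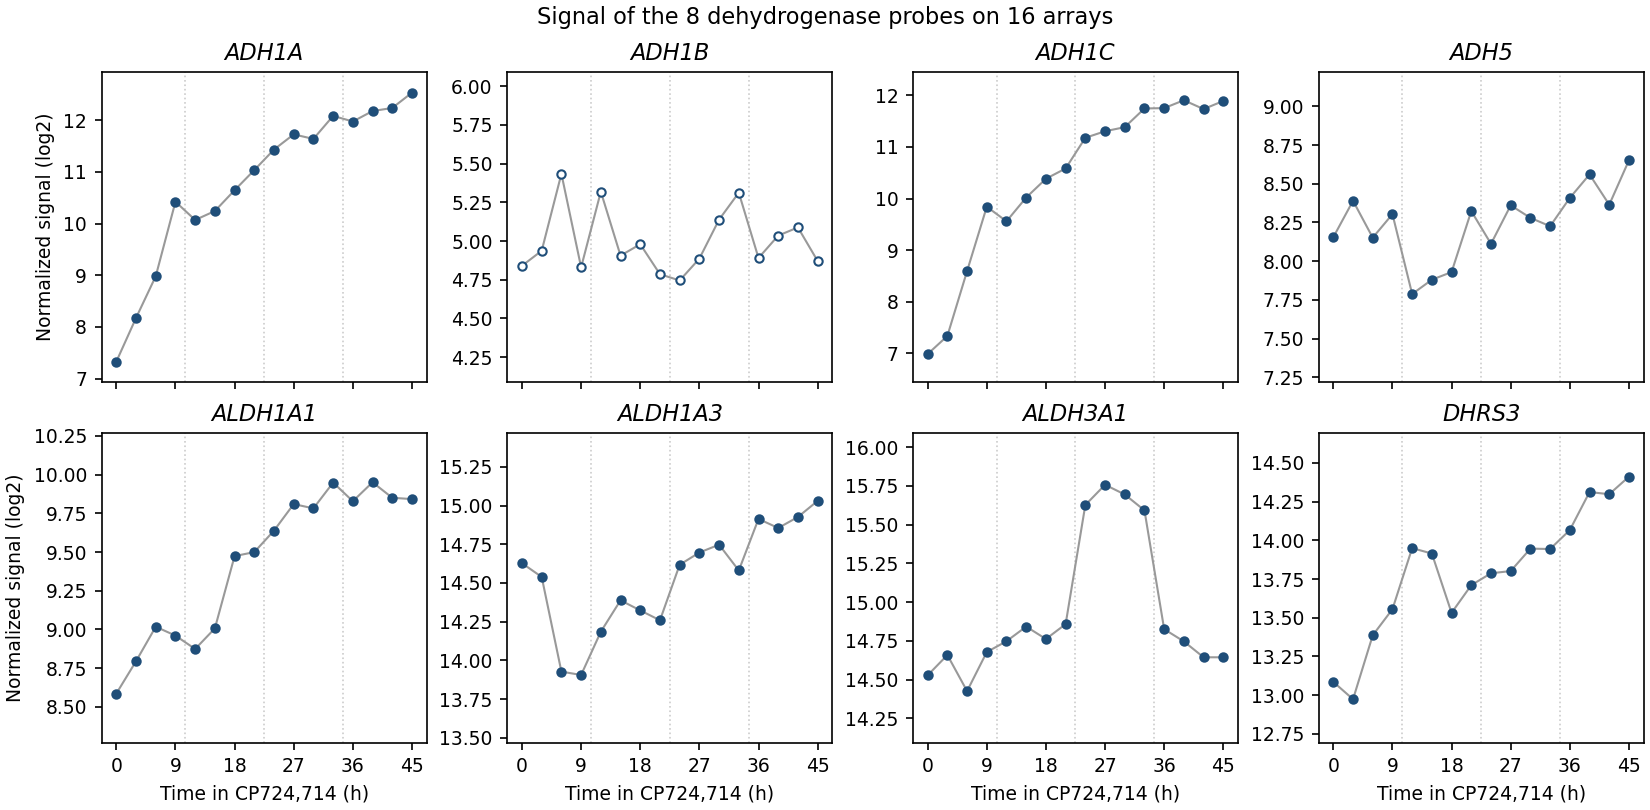
Normalized log2 signal of each member's probe (y axis) against hours in CP724,714 (x axis), 1 point per array. Filled points were detected and open points were not. Dotted lines separate the sets of 4 arrays from 0 to 9, 12 to 21, 24 to 33 and 36 to 45 h, and the panels of ADH1A and ADH1C span 3 times as many log2 units as the others. ADH1A goes from 7.33 to 12.54, ADH1B stays between 4.75 and 5.43, and ADH1C goes from 6.99 to 11.89, while ALDH3A1 has a plateau at 24 to 33 h.

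ADH1A, a class I subunit that oxidises ethanol and retinol, had the largest range of the 8 genes. On the normalized log2 scale its signal was 7.33, 8.17, 8.98 and 10.42 at 0, 3, 6 and 9 h, 10.07, 10.24, 10.65 and 11.04 from 12 to 21 h, 11.43, 11.73, 11.64 and 12.09 from 24 to 33 h, and 11.98, 12.18, 12.24 and 12.54 from 36 to 45 h. The lowest value was that of the 0 h array and the highest that of the 45 h array, 37.0-fold apart. The deposited signals were 312, 370, 492 and 1487 for the first 4 arrays, and the highest was 5436 at 27 h. All 15 later arrays lay above the 0 h array.

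The early hours held most of this difference. ADH1A was 8.56-fold higher at 9 h than at 0 h, which is 59.5% of the log2 difference between 0 and 45 h. Its largest single step was the 2.72-fold one from 6 to 9 h. The step from 9 to 12 h was downward, by 0.35 on the log2 scale. Of 15 steps between neighbouring arrays, 12 were upward. The linear change was 4.52 ± 0.19 (SE, 16 arrays), and the residual SD around the cubic course was 0.28.

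ADH1C, a class I subunit with common variants that alter ethanol oxidation, followed the same course. In normalized log2 units it measured 6.99, 7.34, 8.60 and 9.84 from 0 to 9 h, 9.56, 10.02, 10.38 and 10.58 from 12 to 21 h, 11.18, 11.30, 11.38 and 11.74 from 24 to 33 h, and 11.75, 11.90, 11.73 and 11.89 from 36 to 45 h. Its deposited signal was 282 and 279 on the first 2 arrays and peaked at 4143 at 27 h. ADH1C was 7.23-fold higher at 9 h and 29.9-fold higher at 45 h than at 0 h, and 58.2% of the log2 difference was present by 9 h. Unlike ADH1A it was almost level over the last 4 arrays, with a difference of 0.14 between 36 and 45 h against 0.56 for ADH1A. The linear change was 4.63 ± 0.19 (SE, 16 arrays).

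ADH1B, which lies between these genes on the chromosome and shares the E-box letters with ADH1C, gave no signal above background. The normalized log2 value had a lowest of 4.75 at 24 h, a median of 4.92 and a highest of 5.43 at 6 h. The deposited signal was between 138 and 197 and the detection p-value between 0.275 and 0.973. The spread of these values covered all times alike, with means of 5.01, 5.00, 5.02 and 4.97 for the arrays from 0 to 9, 12 to 21, 24 to 33 and 36 to 45 h. No fold is given for ADH1B, because both ends of the course were below detection.

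Class I messages are near-identical, and a probe of one can take up message of another. The difference between the ADH1A and ADH1C probes was therefore followed array by array. It was lowest at 15 h (0.22) and highest at 3 h (0.83), with a median of 0.36 and an SD of 0.17 over 16 arrays, and it was above 0 on all 16. The sign of such an offset between probes says nothing about which message was more abundant, but its spread was small beside the ranges of 5.21 and 4.92 log2 units of the probes themselves. At 3 h ADH1A stood 0.85 above its 0 h value and ADH1C 0.35. From 3 to 6 h the order was the other way, with steps of 0.81 for ADH1A and 1.26 for ADH1C. The sequences of the probes were not used here, and cross-hybridisation between ADH1A and ADH1C was not tested. The ADH1B probe stayed at background on every array, including those where both neighbours were brightest.

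**Figure D2:**
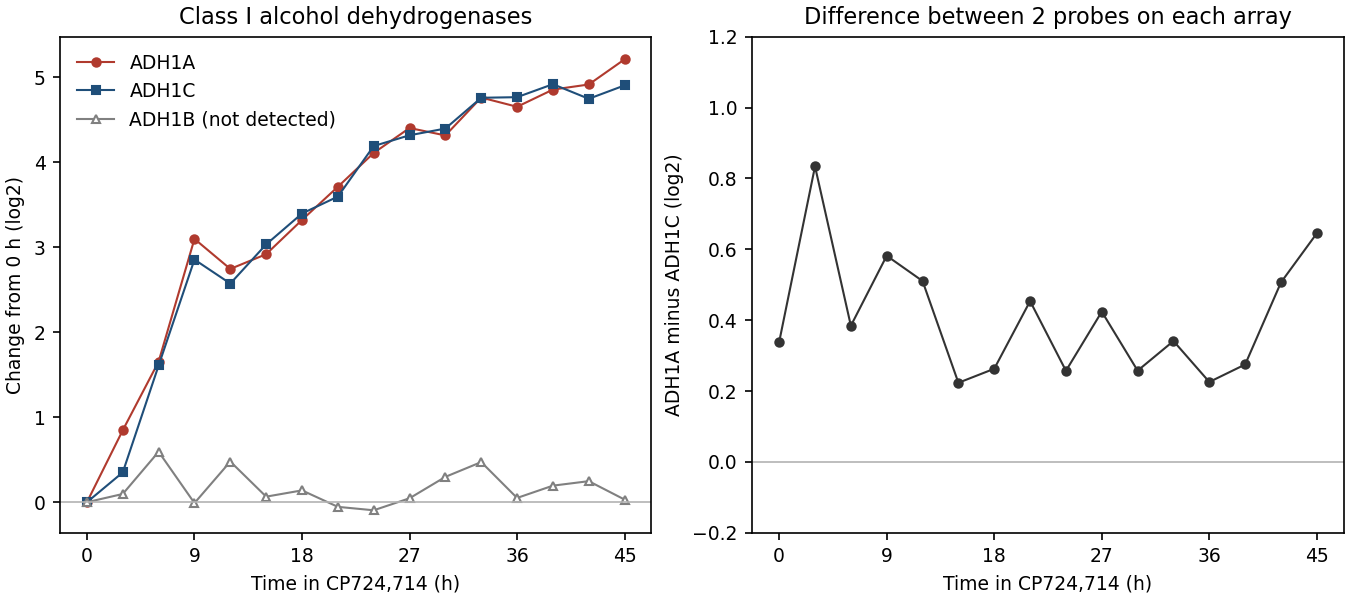
Left, change in normalized log2 signal from the 0 h array for ADH1A, ADH1C and ADH1B (not detected, open triangles) against hours in CP724,714. Right, ADH1A minus ADH1C in log2 on each array, which lies between 0.22 and 0.83 on all 16 arrays, with its largest value at 3 h.

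Among all 16110 probes tested, ADH1C had the largest linear change and ADH1A the next largest, with a difference between them smaller than the SE of either. ADH1A was ahead of ADH1C without background correction (3.85 against 3.76), with the set of 4 arrays as a factor (6.38 against 5.73) and without the 3 h array (4.29 against 4.26). Of the others, ALDH1A1 stood at rank 331, DHRS3 at 604, ALDH1A3 at 1521, ALDH3A1 at 3684 and ADH5 at 3997, counted from the largest rise. Since the genes were chosen with such courses known, these places are a description. ADH1A, ADH1C, ALDH1A1 and DHRS3, 4 of the 7 detected members, were 2-fold or more higher at 45 h than at 0 h, as were 8.04% of all probes. None was 2-fold or more lower, against 9.30% of all probes. None was 2-fold or more lower at 6 h than at 0 h either (2.64% of all probes), and all but ADH5 spanned 2-fold or more between the lowest and the highest array, as did 48.8% of all probes. At 9 h only ADH1A and ADH1C were 2-fold or more above 0 h, against 2.66% of all probes, and the same 2 genes had a 2-fold step from 6 to 9 h, against 1.12%. The background correction sets part of the size of folds from dim signals. Without it the range of ADH1A was 4.20 log2 units in place of 5.21 and that of ADH1C 3.75 in place of 4.92.

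The other genes of the cluster were dim. ADH4 and ADH7, which act mainly on other alcohols and on retinol in liver and stomach, were detected on none of the arrays. ADH6 was detected on 7, with a linear change of 0.13 ± 0.32 (SE). ADH5, the ubiquitous class III enzyme that oxidises S-hydroxymethylglutathione and so clears formaldehyde, was detected on all 16 but had the smallest range of the detected members. Over the arrays its normalized log2 signal had a lowest value of 7.79 at 12 h, a median of 8.29 and a highest of 8.65 at 45 h, a range of 1.82-fold. It stood at 8.15 at 0 h, and the 3 arrays from 12 to 18 h were its 3 lowest (7.79, 7.88 and 7.93). The linear change was 0.41 ± 0.15 (SE, 16 arrays), with 10 of 15 later arrays above 0 h.

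ALDH1A1, a cytosolic retinaldehyde dehydrogenase, was higher late in the course. Its normalized log2 signal was 8.59, 8.80, 9.02 and 8.96 from 0 to 9 h, 8.87, 9.01, 9.47 and 9.50 from 12 to 21 h, 9.64, 9.81, 9.78 and 9.95 from 24 to 33 h, and 9.83, 9.95, 9.85 and 9.84 from 36 to 45 h. All 15 later arrays lay above the 0 h array, and no array up to 15 h overlapped with those from 18 h on. The signal passed the midpoint of its range at 18 h and was nearly level from 27 h, with a difference of 0.03 between 27 and 45 h. It was 2.39-fold higher at 45 h than at 0 h, and its linear change was 1.39 ± 0.11 (SE, 16 arrays).

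ALDH1A3, the retinaldehyde dehydrogenase that accounts for much of the ALDH activity of breast cancer cells, was bright at the start and followed a different path. It began at a normalized log2 signal of 14.63 and 14.54 at 0 and 3 h and then gave 13.93 and 13.91 at 6 and 9 h. From 12 to 21 h it was 14.19, 14.39, 14.32 and 14.26, from 24 to 33 h 14.62, 14.70, 14.75 and 14.58, and from 36 to 45 h 14.91, 14.85, 14.93 and 15.03. The signal was thus 1.65-fold lower at 9 h than at 0 h, close to its starting value from 24 to 33 h, and above it on all 4 arrays from 36 h on. ALDH1A3 was the only detected member with most of its later arrays below 0 h: 6 of 15 lay above. Its brightest signal was 53.6% of the brightest probe of the same array, and its linear change of 0.80 ± 0.12 (SE) describes the path poorly because of the early dip.

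DHRS3, a microsomal reductase that returns retinaldehyde to retinol and is itself known to be induced by retinoic acid, was higher from 12 h on, with a dip at 18 h. The normalized log2 signal was 13.09, 12.97, 13.39 and 13.56 from 0 to 9 h, 13.95 and 13.91 at 12 and 15 h, and 13.53 and 13.71 at 18 and 21 h. It then went from 13.79 at 24 h to 14.41 at 45 h, with 13.80, 13.95, 13.94, 14.07, 14.31 and 14.30 in between. The 45 h array was 2.51-fold above the 0 h array, and the lowest value was at 3 h. The linear change was 1.17 ± 0.11 (SE, 16 arrays).

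ALDH3A1, a cytosolic dehydrogenase of aromatic and lipid-derived aldehydes that is not a retinaldehyde dehydrogenase, had a plateau. Its normalized log2 signal was 14.53, 14.66, 14.43 and 14.68 from 0 to 9 h and 14.75, 14.84, 14.76 and 14.86 from 12 to 21 h. The 4 arrays from 24 to 33 h gave 15.63, 15.76, 15.69 and 15.59, and those from 36 to 45 h gave 14.82, 14.75, 14.64 and 14.64. The step from 21 to 24 h was 0.77, and the step from 33 to 36 h was -0.77. All 4 plateau arrays lay between 15.59 and 15.76, and each was above all 12 other arrays.

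The plateau was present in the signals as deposited, 50046, 65439, 53809 and 45826 from 24 to 33 h against 38992 at 21 h and 24627 at 36 h. The smallest gap between a plateau array and any other array was 0.73 log2 units (1.66-fold) after quantile normalization, 0.55 after median scaling, 0.58 after cyclic loess, and 0.23 with no normalization at all. Of 16110 probes, 45 (0.279%) had all 4 arrays from 24 to 33 h above the other 12, and no other probe had a gap as wide as that of ALDH3A1 (1 probe, 0.00621%). At 65439 the probe reached 90.0% of the brightest signal of its array, and its linearity at that brightness was not tested. A straight line is a poor account of this course, and the linear change was 0.45 ± 0.19 (SE, 16 arrays).

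**Figure D3:**
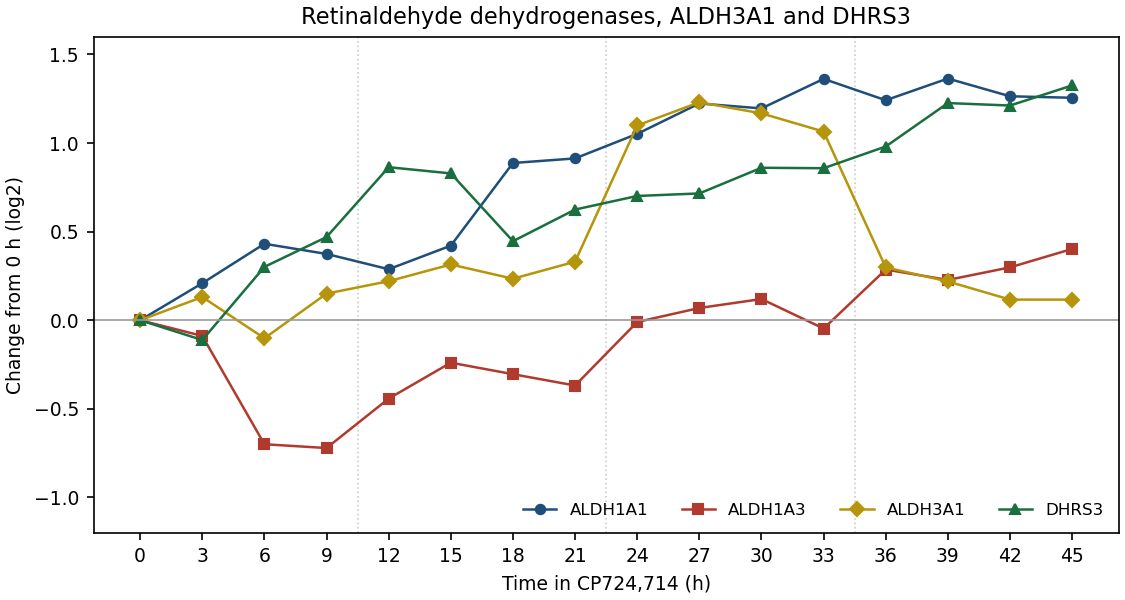
Change in normalized log2 signal from the 0 h array (y axis) against hours in CP724,714 (x axis) for ALDH1A1, ALDH1A3, ALDH3A1 and DHRS3, 1 point per array. Dotted lines separate sets of 4 arrays. ALDH3A1 steps up by 0.77 between 21 and 24 h and down by 0.77 between 33 and 36 h, ALDH1A3 lies 0.72 below its start at 9 h, and ALDH1A1 and DHRS3 end 1.26 and 1.33 above it.

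The edges of the ALDH3A1 plateau coincided with the borders between sets of 4 arrays, 0 to 9, 12 to 21, 24 to 33 and 36 to 45 h, over which all probes were also compared. The labels name no chip or batch for these sets. The median absolute step of all probes was 0.23 from 9 to 12 h, 0.19 from 21 to 24 h and 0.15 from 33 to 36 h, against a median of 0.15 (0.12 to 0.23) for the other 12 steps. The part of the array set in the ALDH3A1 plateau was not tested. For each member the difference between 45 and 0 h was divided into the changes within the sets and the steps across the 3 borders.

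In net terms the difference of ADH1A and ADH1C lay mostly within the sets. Of 5.21 log2 units for ADH1A, 5.27 arose within sets and -0.06 across borders, and of 4.90 for ADH1C, 4.58 arose within sets and 0.32 across borders. Both were higher at the end than at the start of all 4 sets. Their border steps were of mixed sign, at -0.35, 0.40 and -0.11 for ADH1A and -0.28, 0.59 and 0.01 for ADH1C. Steps of opposite sign partly cancel in the sums across borders, which thus do not measure the effect of the set. ALDH1A1 had 1.32 within sets and -0.07 across borders, and DHRS3 0.73 and 0.59. ALDH3A1 had 0.04 within sets and 0.07 across borders. ADH5 had 1.04 and -0.54, parts of opposite sign. ALDH1A3 had them the other way round, with -0.57 within sets and 0.97 across borders. Its steps at the borders were 0.28, 0.36 and 0.33, all upward. When the set entered the fit as a factor beside a straight line, the linear change was 6.38 ± 1.28 (SE) for ADH1A and 5.73 ± 1.38 for ADH1C. In that fit the linear change was 1.70 ± 0.52 for ALDH1A1, 1.00 ± 0.56 for ADH5 and 0.88 ± 0.51 for DHRS3. It was -0.85 ± 0.55 for ALDH1A3 and -0.13 ± 0.30 for ALDH3A1, both of the opposite sign to the cubic course. The late height of ALDH1A3 thus cannot be told apart from a difference between sets of arrays. ALDH1A3 and DHRS3 had all 4 arrays from 36 to 45 h above the other 12, as did 2.95% of all probes.

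The detected members were compared in pairs by Pearson r of the normalized log2 values over the 16 arrays, which share the order of time. Of 21 pairs, 20 had r above 0. ADH1A and ADH1C had the highest r (0.99), and their deviations from the cubic courses also went together (r = 0.85). ALDH1A1 had r of 0.93 with ADH1A and with ADH1C, and DHRS3 had r of 0.89 with each of them. The deviations of ALDH1A1 and DHRS3 were opposed (r = -0.74), with DHRS3 high at 12 and 15 h and ALDH1A1 high from 18 h. ALDH3A1 and ADH5 had the lowest r of all pairs (-0.01). Over the 21 pairs the r of the deviations ran from -0.74 to 0.85 with a median of 0.08.

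The genes outside the group with the most similar courses were ranked by r over the same arrays. The highest for ADH1A were C10orf81, FLJ41603 and GPR12, all with r of 0.99. For ADH1C they were HSD11B2, the enzyme that turns cortisol into cortisone, followed by C10orf81 and FLJ41603, again with r of 0.99. HSD11B2 had a linear change of 3.02 ± 0.15 (SE) and C10orf81 of 2.38 ± 0.13, both smaller than those of the class I genes. ALDH1A1 was most similar to PQLC3, CLIC6 and FBP1, the gluconeogenic fructose bisphosphatase (r = 0.97 each). DHRS3 was most similar to MSLN, which encodes mesothelin (r = 0.98), PLEKHF1 and ANKMY1 (r = 0.95 each). ALDH1A3 was closest to LHX6 (r = 0.93), the carnitine transporter gene SLC22A5 (r = 0.93) and TWISTNB (r = 0.92). ADH5 was closest to PDHA1, a subunit of pyruvate dehydrogenase, and PAOX (r = 0.88 each) and C9orf82 (r = 0.87).

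The course of ALDH3A1 had no close match. The 3 highest were WNT9B (r = 0.88), OLFM1 (r = 0.86) and HIST1H2BH (r = 0.86). Their gaps between the arrays from 24 to 33 h and the others were 0.14, 0.17 and 0.22 log2 units against 0.73 for ALDH3A1, and WNT9B and OLFM1 were near background, at 5.79 and 5.52 on the 0 h array.

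The wider enzyme family was examined in a list of 22 other alcohol and aldehyde dehydrogenases and related enzymes, of which 19 passed the filter. By limma with Benjamini-Hochberg adjustment over all 16110 probes, 10 of the 19 (52.6%) rose and 3 fell, and 6 did not pass. Of all probes 26.0% rose, 21.7% fell and 51.3% depended on time in any shape (F-test). The median linear change was 0.39 for the list and 0.05 for all probes. In the fit with the set of 4 arrays as a factor no gene of the list passed in either direction, with 7 rising and 1 falling at an unadjusted p under 0.05, and 4 rose when the fit allowed a jump from 21 to 24 h.

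ADHFE1, a mitochondrial iron-dependent alcohol dehydrogenase of a family unrelated to class I, rose most. Its normalized log2 signal went from 7.03 at 0 h to 8.39 at 9 h, 9.58 at 24 h and 9.58 at 45 h, 5.87-fold above the start, with a linear change of 2.63 ± 0.14 (SE; limma adjusted p = 3.1e-11). ALDH2, the mitochondrial enzyme that clears acetaldehyde, the product of ethanol oxidation by class I enzymes, rose by 1.87 ± 0.11 (limma adjusted p = 1.3e-10), from 12.94 to 14.56. ALDH3B1, an ALDH3 relative that acts on lipid aldehydes, rose by 1.77 ± 0.24 (limma adjusted p = 5.1e-06). Most of the change of ALDH3B1 lay at the border from 21 to 24 h, where it went from 8.20 to 9.51, and its dimmer probe did not pass (0.41 ± 0.32). The others that rose were ALDH6A1, ALDH1L2, ALDH3A2, AKR1A1, ALDH5A1, ALDH7A1 and ALDH4A1. Of these, ALDH1L2 was near background, detected on 3 of 16 arrays and at neither 0 nor 45 h. With the dimmest probe of each gene 6 rose, since those of AKR1A1, ALDH3A2, ALDH3B1 and ALDH4A1 did not pass, and 4 fell in place of 3.

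The 3 that fell were ALDH16A1 (-0.89 ± 0.18, limma adjusted p = 0.00041), ALDH1B1 (-0.84 ± 0.31, limma adjusted p = 0.029) and ALDH1A2 (-0.61 ± 0.22, limma adjusted p = 0.025). ALDH16A1 lay between 8.55 and 9.40 from 0 to 42 h and at 7.64 at 45 h. Without the 45 h array its linear change was -0.53 and still passed. With a jump from 21 to 24 h in the fit it did not pass (-0.72 ± 0.46, limma adjusted p = 0.306). ALDH1A2 is the retinaldehyde dehydrogenase not among the members, and its level at 45 h (8.25) was close to that at 0 h (8.30). The fall of ALDH1B1, a mitochondrial relative of ALDH2, rested on its first arrays, 8.66 at 0 h and 8.44 at 3 h against 6.68 at 6 h. Its limma adjusted p was 0.372 without the 0 h array, 0.192 without the 3 h array and 0.0932 with a straight line alone. That of ALDH1A2 was 0.0653, 0.0597, 0.085 and 0.0529 without the 0, 3, 6 and 39 h array.

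**Figure D4:**
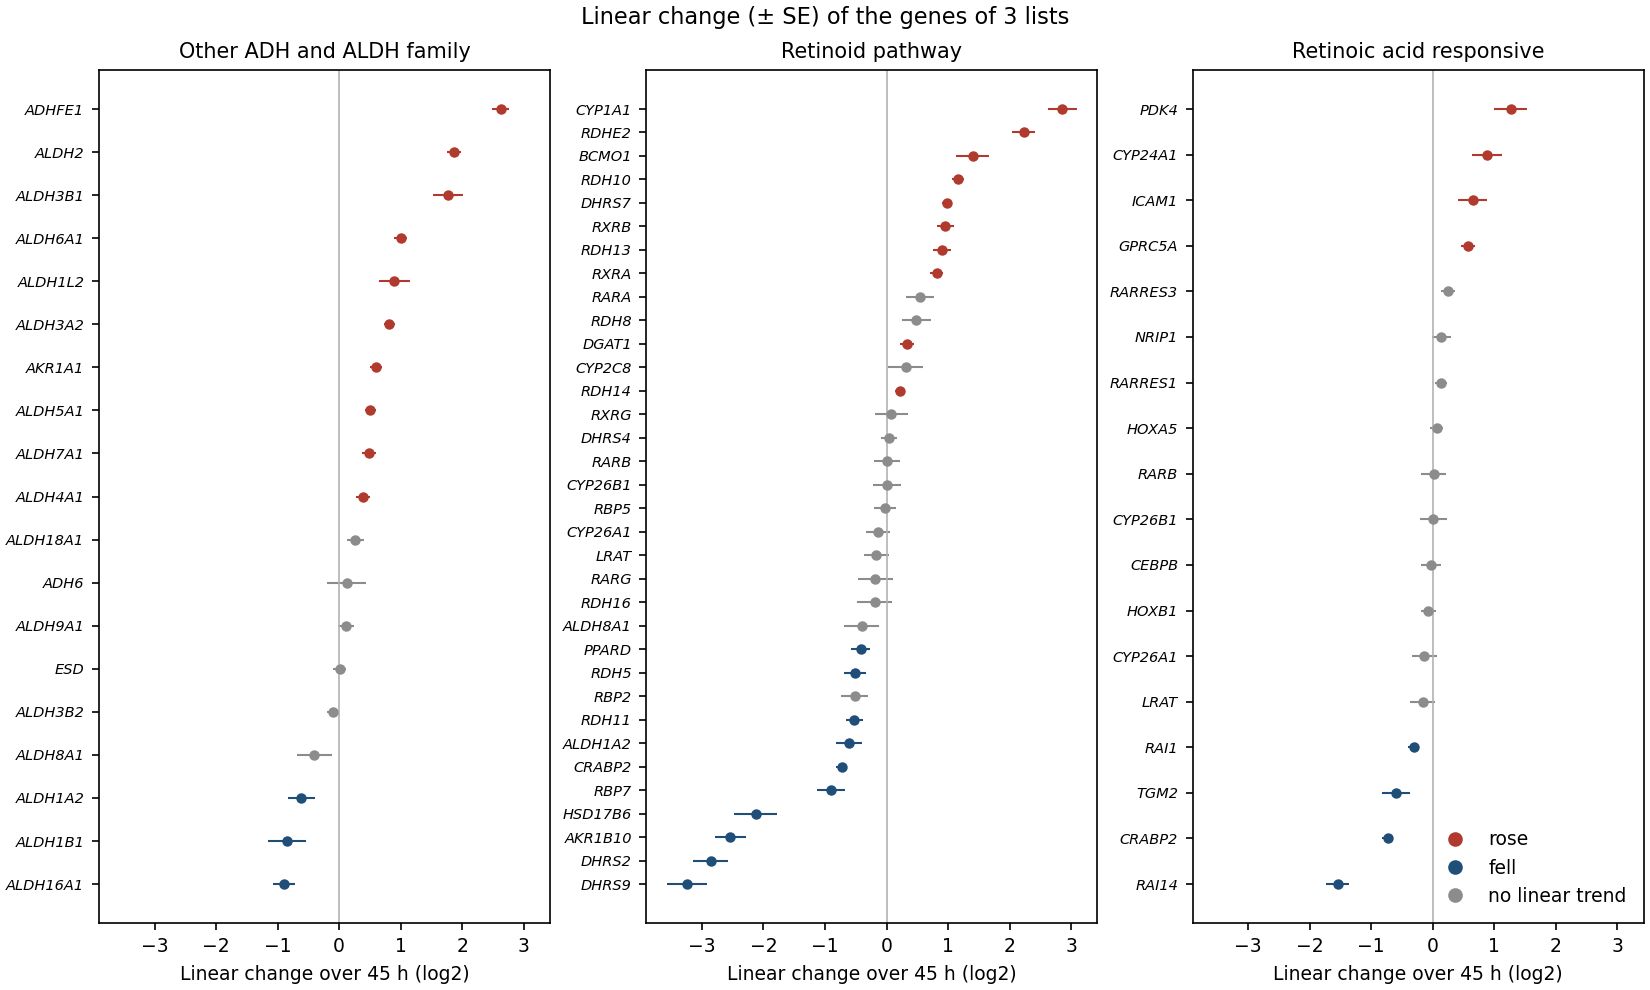
Linear change over 45 h in log2 (x axis, point) with its SE (bar) of each tested gene of 3 lists, ordered by value and named as in the table; red genes rose, blue genes fell and grey genes did not pass a limma adjusted p of 0.05. In the list of other dehydrogenases 10 of 19 rose and 3 fell, and in the retinoid pathway 10 of 34 rose and 10 fell. Of the retinoic acid responsive genes 4 of 18 rose and 4 fell, and of all 16110 probes 26.0% rose and 21.7% fell.

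The retinoid pathway beside the members was examined in a list of 43 genes for retinol and retinaldehyde enzymes, binding proteins and receptors, of which 42 were on the array and 34 passed the filter. Among all probes 26.0% rose and 21.7% fell, with a median linear change of 0.05. Of the 34, 10 rose (29.4%), 10 fell (29.4%) and 14 did not pass, with a median of -0.01. With the set of 4 arrays as a factor none rose and 2 fell (DHRS2 and DHRS9), and 8 rose and 3 fell at an unadjusted p under 0.05. With a step between 21 and 24 h 6 rose.

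CYP1A1, a cytochrome P450 that can oxidise retinoids and is the classic target of the aryl hydrocarbon receptor, rose most. From 8.21 at 0 h its normalized log2 signal went to 10.47 by 3 h, 11.84 by 12 h and 12.68 by 45 h, 22.1-fold above the start (linear change 2.86 ± 0.24 SE, limma adjusted p = 1.1e-08). ALDH3A1, which is a target of the same receptor in several tissues, stood 0.13 above its own start at 3 h and 1.06 to 1.23 above it from 24 to 33 h. The part of that receptor in the courses of CYP1A1 and ALDH3A1 was not tested. RDHE2, an epidermal retinol dehydrogenase, rose by 2.23 ± 0.19 (limma adjusted p = 1.1e-08). BCMO1, which cleaves beta-carotene to retinaldehyde, rose by 1.40 ± 0.27 (limma adjusted p = 0.00022), but its linear change was -0.37 with a step between 21 and 24 h in the fit.

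The 3 largest falls were those of other reductases and dehydrogenases of the list. DHRS9, a microsomal retinol dehydrogenase, fell from 9.60 at 0 h to below detection at 45 h, at least 10.2-fold lower (linear change -3.25 ± 0.32 SE, limma adjusted p = 1.1e-07). Only 1 of the 4 DHRS9 probes passed the filter. DHRS2, a mitochondrial dicarbonyl reductase, had -2.86 ± 0.28 (limma adjusted p = 9.9e-08). AKR1B10, a cytosolic retinaldehyde reductase, had -2.54 ± 0.25 (limma adjusted p = 9.8e-08). Both had wide steps at the borders of array sets, with DHRS2 at 11.37 and 12.84 and AKR1B10 at 9.82 and 8.73 at 9 and 12 h.

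Of the receptors, RXRA and RXRB, the shared partners of many nuclear receptors, rose by 0.81 ± 0.11 and 0.96 ± 0.14 (SE). RARA had a linear change of 0.54 ± 0.22 and did not pass (limma adjusted p = 0.0539), although it passed with array weights (limma adjusted p = 0.00132) and when any one of 5 arrays was left out. With the set as a factor RARA had -0.76 ± 0.75 (limma adjusted p = 0.694), and its dimmer probe had -0.41 ± 0.25 (limma adjusted p = 0.196). RARB (0.01 ± 0.21), RARG (-0.18 ± 0.29) and RXRG (0.08 ± 0.27) did not pass. All were dim, at 6.47, 6.06 and 5.94 at 0 h, and were detected on 15, 10 and 11 arrays. RARG passed with a step between 21 and 24 h in the fit, at -1.83 ± 0.62 (limma adjusted p = 0.0465). The binding protein CRABP2, which carries retinoic acid to its receptors, fell by 0.73 ± 0.09 on the log2 scale.

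Genes known to respond to retinoic acid in some cells were examined in a list of 21, of which 18 passed the filter and 6 were also in the pathway list. Of the 18, 4 rose (22.2%), 4 fell (22.2%) and 10 did not pass, against 26.0% rising and 21.7% falling among all probes. The median linear change was 0.01, close to that of all probes. CYP26A1 and CYP26B1, the retinoic acid hydroxylases that are the most widely used reporters of retinoic acid, had linear changes of -0.14 ± 0.20 and 0.01 ± 0.22 (SE) and did not pass, both being dim (6.10 and 6.23 at 0 h). The lowest value of CYP26A1 was nonetheless that at 0 h (6.10), with 7.19 at 6 h and 6.90 at 45 h, 1.75-fold above the start. It did not pass the F-test for any shape (limma adjusted p = 0.0597). With the set as a factor CYP26A1 had 2.22 ± 0.87 and did not pass either (limma adjusted p = 0.232).

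The genes with the largest rises were PDK4, a pyruvate dehydrogenase kinase (1.26 ± 0.27 SE, limma adjusted p = 0.00074), the vitamin D hydroxylase CYP24A1 (0.88 ± 0.24, 0.0048) and the adhesion molecule ICAM1 (0.65 ± 0.23, 0.027). CYP24A1 and ICAM1 were dim, at 6.53 and 6.41 at 0 h, and were detected on 14 and 12 arrays. At 45 h they stood 1.10-fold and 1.02-fold above 0 h. With the step neither passed (limma adjusted p = 0.139 and 0.0803). ICAM1 did not pass without the 39 h array (0.0782), without the 42 h array (0.115) or with a straight line alone (0.0559). The largest falls were those of RAI14 (-1.55 ± 0.19, limma adjusted p = 1.7e-06), CRABP2 and the transglutaminase TGM2 (-0.60 ± 0.22, limma adjusted p = 0.033). TGM2 did not pass with cyclic loess (limma adjusted p = 0.0511), array weights (0.233), the step (0.301) or the set factor (0.953), or in the fits without the 0, 6, 9, 36, 39 or 45 h array (0.0502 to 0.0708). The TGM2 probes were dim and differed, since another of nearly the same mean level (6.30 against 6.37) had -2.15 ± 0.31 (limma adjusted p = 1.2e-05) and the third had -0.65 ± 0.30 (limma adjusted p = 0.0795). With a step between 21 and 24 h in the fit 2 rose and 2 fell, and with the set of arrays as a factor none passed in either direction, with 2 rising and 1 falling at an unadjusted p under 0.05. DHRS3 itself, a member that is also a known retinoic acid target, was not in the list.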

How the data were processed

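Total RNA of SUM225 cultures was labelled with the Illumina TotalPrep-96 kit and hybridised to bead arrays, 1 per time point. The deposited table holds a linear signal intensity of every probe on every array, with no background subtraction or normalization by the authors, and a deposited detection p-value. The study's methods describe quantile normalization, a step after this table. The genome build and scanning software are not given in the sources used here. All per-sample columns were used, and each sample was grouped by the time in its label.

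Signals were background-corrected and normalized with limma 3.58.1 (neqc, offset of 16, then quantiles and log2) in R 4.3.3. The offset reduces folds of dim probes. Every probe with a detection p-value under 0.05 on 3 or more arrays entered a limma fit (lmFit, then eBayes with trend) of a cubic polynomial in hours, tested two-sided with Benjamini-Hochberg adjustment at 0.05. The fit was tested on simulated data. p-values measure only the scatter of single arrays around the course, and precision is limited by the 16 arrays. Of several probes of a gene the brightest was used.

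The members and lists were chosen with earlier results of these data known, so no test of a member is given. Some genes are not reported here and were left out of the lists and their counts. Named genes were all members, the 3 genes with the highest r to each detected member, the 3 largest rises and falls past the threshold in each list, the retinoic acid and retinoid X receptors, and the cell type markers. CYP26A1, CYP26B1 and the other genes named from the lists or the ADH cluster were chosen after their values were seen. A level below detection at 45 h was set to the lowest detected log2 value of that array to give a bound. Promoters came from a RefSeq table (7 of 8 members had an entry) and were aligned globally with Biopython 1.88 (match 1, mismatch -1, gap opening -2, extension -0.5). The alternatives tried were cyclic loess or median scaling as the normalization, an offset of 50, uncorrected signals with a floor of 16, all probes or those detected on every array, array weights, a straight line, a spline with 4 degrees of freedom, a jump from 21 to 24 h, the set of 4 arrays as a factor, the dimmest probe, and each array left out in turn. Plots were made in Python 3.11.15 (matplotlib 3.10.9).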

Additional observations from a re-analysis of the deposited data

How the results depend on the processing

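No paired analysis was possible because no 2 arrays shared a time point. When the fit allowed a jump from 21 to 24 h, 1615 probes rose and 1477 fell in place of 4190 and 3495, and the lists gave 6 rising retinoid pathway genes, 4 rising other dehydrogenases, and 2 rising and 2 falling retinoic acid responsive genes. BCMO1 (-0.37), ALDH7A1 (-0.32), RAI1 (0.023), RXRG (-0.54) and CYP26B1 (-0.45) changed sign there. With the set of 4 arrays as a factor, 68 probes rose and 77 fell. Together they were the 145 time-dependent probes of that fit, where the line alone was tested. The 8263 of the main fit passed an F-test for any shape, so the 2 counts are not alike. Of the lists, 0 genes rose and 2 of the retinoid pathway fell, with 0 falling in the other 2 lists by limma, and ALDH1A3 (-0.85), ALDH3A1 (-0.13), GPRC5A (-0.20), RARA (-0.76), CYP26A1 (2.22) and CYP26B1 (-0.42) changed sign. This fit spends its degrees of freedom on the sets and tests a line within them. Requiring detection on all 16 arrays gave 2 rising retinoic acid responsive genes, and the dimmest probe of each gene gave 6 rising and 4 falling other dehydrogenases. Leaving out 1 array gave 3744 to 4230 rising, 3107 to 3540 falling and 7317 to 8368 time-dependent probes, 10 to 11 rising and 2 to 3 falling other dehydrogenases, 9 to 11 and 8 to 11 retinoid pathway genes, and 3 to 5 and 3 to 5 retinoic acid responsive genes. The linear change then lay between 4.0 and 4.74 for ADH1A, 4.16 and 4.97 for ADH1C, 0.33 and 0.53 for ADH5, 1.33 and 1.51 for ALDH1A1, 0.71 and 1.01 for ALDH1A3, 0.35 and 0.67 for ALDH3A1, and 1.06 and 1.24 for DHRS3, with the lowest for both ADH1 genes without the 0 h array. With the jump it was 3.83 for ADH1A and 4.09 for ADH1C, and ALDH3A1 had -1.03. Apart from RARA, TGM2, ICAM1, ALDH1B1 and ALDH1A2, no tested list gene named here changed its call with another normalization, background correction, offset or filter, with array weights or a straight line, or without any 1 array, wherever it was tested.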
